A study of Mus musculus with 18 samples.

Results

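The response to interferon-gamma was measured here in RAW264.7 cells, a mouse macrophage-like line, in which mouse CITED1 had been switched on by doxycycline. All cells of this comparison carry the lentiviral construct pINDUCER20-mCITED1 (labelled p2080), and all received doxycycline at 100 ng/mL. A group of 3 samples had doxycycline alone, and a group of 3 samples had doxycycline together with interferon-gamma at 200 U/mL. The series holds 18 samples in 6 groups of 3, and construct cells without doxycycline, with or without interferon-gamma, form a second pair that is used below. The labels give neither the length of treatment nor whether the replicates of a group were separate cultures, and they do not say whether the transduced cells are 1 clone or a pool.

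Genes were chosen by a single rule, which was to have a row between these 2 groups in the authors' deposited table of pairwise comparisons. That table gives 4679 such rows, out of 7315 transcript or locus entries with a row in any of the 15 pairs of the 6 groups. They cover 3699 of 5455 named genes. Each row gives a fold change, its direction, the summed FPKM of both groups (fragments scaled by transcript length and library size) and a q-value, and no value per sample. A level is therefore an FPKM rebuilt from the fold and the sum, without a replicate error, a sample number or a known sequencing depth behind it, and each call is the authors' own at a q of 0.05 or less and at least 2-fold. Absence of a row does not show that a gene stayed the same. Where a gene has several called transcripts, the value is that of the one with the highest summed FPKM.

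Interferon-gamma binds a receptor whose kinases JAK1 and JAK2 activate STAT proteins. Dimers of STAT proteins bind a DNA element called GAS, while complexes of STAT proteins with IRF9, or IRF proteins alone, bind another element called ISRE. In macrophages the cytokine is known to raise antiviral genes, antigen presentation and the proteins that attack engulfed microbes, and to slow division. CITED1 has no DNA-binding domain of its own and is known as a partner of the histone acetyltransferases CBP and p300, which activated STAT proteins also use.

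Short stretches of promoters show the letters on which the sequence counts below rest. They come from RefSeq (GRCm38.p6), run 60 bases each, are written 5′ to 3′ on the strand of the gene, and have the searched motif in capitals. The first 4 are from genes that rose steeply and hold an ISRE, Socs3 holds a GAS, Mcm6 holds an E2F element of replication genes, and Ccnb2 and Cdc20 hold a CHR, an element of genes that peak at mitosis.
Phf11a: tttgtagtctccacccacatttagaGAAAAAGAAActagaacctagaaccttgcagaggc
Isg15: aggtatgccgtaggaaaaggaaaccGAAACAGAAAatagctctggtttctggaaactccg
Ifit3: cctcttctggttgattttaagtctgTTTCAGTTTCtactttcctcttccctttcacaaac
Gbp3: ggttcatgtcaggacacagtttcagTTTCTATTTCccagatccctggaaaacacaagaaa
Socs3: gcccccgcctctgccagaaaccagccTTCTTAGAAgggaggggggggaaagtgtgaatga
Mcm6: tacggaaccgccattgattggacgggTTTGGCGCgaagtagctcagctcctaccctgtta
Ccnb2: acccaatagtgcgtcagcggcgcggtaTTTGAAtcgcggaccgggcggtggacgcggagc
Cdc20: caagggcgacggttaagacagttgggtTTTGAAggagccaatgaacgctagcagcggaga

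These stretches lie at chr14:59297517-59297576 (Phf11a, minus strand), chr4:156200850-156200909 (Isg15, minus), chr19:34583382-34583441 (Ifit3, plus) and chr3:142559980-142560039 (Gbp3, plus). Socs3 lies at chr11:117969487-117969546 (minus), Mcm6 at chr1:128359719-128359778 (minus), Ccnb2 at chr9:70421518-70421577 (minus) and Cdc20 at chr4:118437329-118437388 (minus). The 60 bases shown for Ifit3 are also found, letter for letter, at chr19:34607778-34607837 before its neighbour Ifit3b, so the letters cannot tell these 2 genes apart.

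Motifs were searched on both strands of the window from 250 bases before to 50 bases after each gene's start. The letters were GAAANNGAAA for ISRE, TTCNNNGAA for GAS, TTTGGCGC or TTTCGCGC for E2F, TTTGAA for CHR and GGGANNNNCC for NF-kB. Of 3699 called genes 2866 had a window, and 27025 gene symbols had one in all. An ISRE was found in 3.49% of all promoters (943 of 27025), in 6.10% of promoters of genes called higher (85 of 1393) and in 1.91% of those called lower (28 of 1467). The share climbed with the size of the rise. It was 3.83% for rises of 2 to 4-fold (35 of 915), 7.93% for 4 to 16-fold (31 of 391) and 21.8% for 16-fold and over (19 of 87). Some letters are counted more than once in the steepest class. There Ifit3 and Ifit3b hold the same stretch, and the stretches of Ifit1 and Ifit1bl2 overlap. Among the antiviral genes that rose, 14 of 26 promoters held an ISRE.

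GAS stood in 8.47% of all promoters, 7.75% of those called higher and 7.29% of those called lower. By size of the rise the share was 7.76% for 2 to 4-fold (71 of 915), 6.65% for 4 to 16-fold (26 of 391) and 12.6% for 16-fold and over (11 of 87), so it was above that of all promoters in the steepest class alone. In 20 promoters of genes called higher both GAS and ISRE occurred, and in 7 of these they overlapped. E2F letters stood in 0.833% of all promoters, in 0.574% of those called higher (8 of 1393) and in 2.52% of those called lower (37 of 1467). CHR letters, which are short and so frequent, stood in 18.1% of all promoters, in 10.8% of those called higher (151 of 1393), in 16.7% of those called lower (245 of 1467), and in 39 of 57 promoters (68.4%) of mitotic genes that fell. NF-kB letters stood in 20.5% of all promoters, 28.7% of those called higher and 25.4% of those called lower. Genes with a row in any pair of the 6 groups had shares of 26.9% for NF-kB, 13.7% for CHR, 7.62% for GAS, 3.80% for ISRE and 1.50% for E2F, so the NF-kB shares of called genes lie near that of listed genes. A match of letters is no evidence of binding, and these shares are descriptions with no test.

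**Figure D1:**
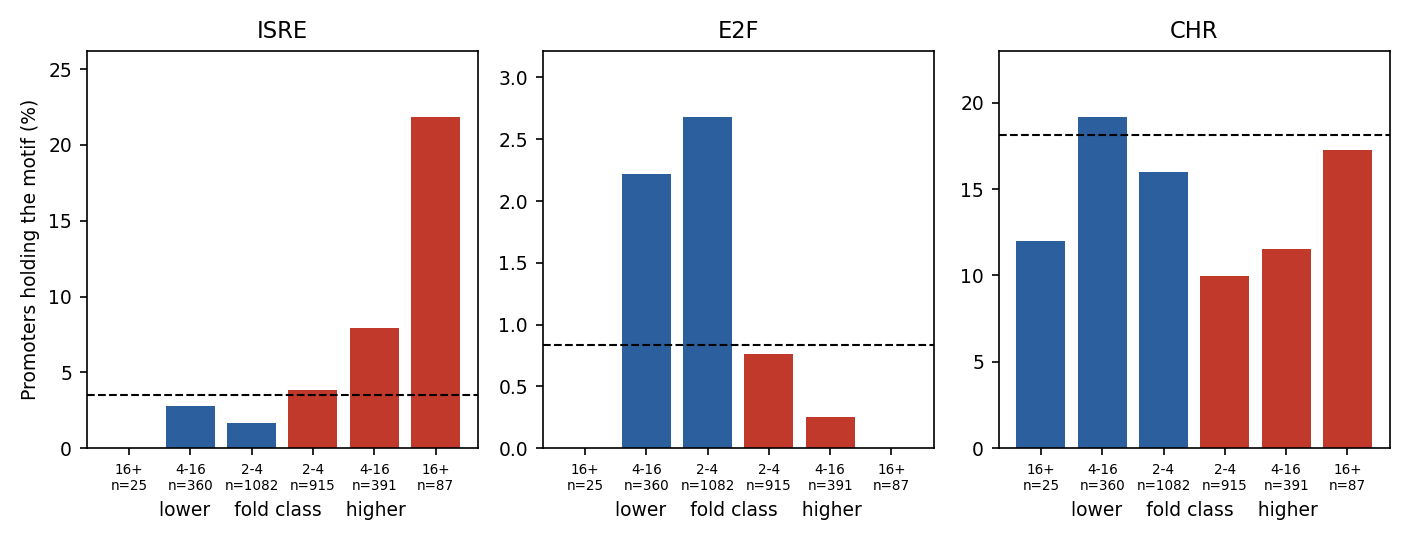
Share of promoters (percent, vertical axis) that hold the ISRE, E2F or CHR letters, by deposited fold class of the gene (horizontal axis, blue lower, red higher, n promoters under each class) with the share over all promoters as a dashed line. The ISRE share reaches 21.8% among genes that rose 16-fold or more, while E2F is above the dashed line only in the 2 classes of smaller falls.

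In the table as deposited 1837 genes were higher with interferon-gamma and 1854 lower, which is 33.7% and 34% of the 5455 named genes listed in any pair. When levels were rescaled on all entries with both levels known, 733 genes were higher and 1860 lower. Rescaled on the entries with both levels but no row here, 1839 were higher and 1607 lower. The first shift lies on the table's own 2-fold limit, so it cannot show whether the near equality depends on the scaling. By the fold in the authors' deposited table, 35 genes rose 64-fold or more and 96 rose 16 to 64-fold, against 6 and 25 genes that fell by as much. Most deposited folds were small, with 64.3% of rises and 73.1% of falls between 2 and 4-fold. The steepest rises came from genes that were nearly silent: the 35 genes past 64-fold had a median of 0.459 FPKM with doxycycline alone and 85.5 FPKM with interferon-gamma added. Of the genes called higher 257 reached 100 FPKM in either group, and of those called lower 51 did.

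A further 8 genes had transcripts called in both directions. Among them is Zeb2, a zinc finger repressor, with 1 transcript that fell from 14.8 to 5.34 FPKM and another that rose from 3.18 to 14.4 FPKM. Of the rows, 74.0% carry the same smallest q of 0.000387, so q does not rank the genes.

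The largest rise was that of Slamf8, a SLAM family receptor of macrophages, from 0.148 to 204.3 FPKM (1380-fold in the authors' deposited table). Ccl22, a chemokine that attracts regulatory T cells, rose from 0.171 to 80.3 FPKM, the complement gene Cfb from 0.640 to 261.4 FPKM, the feedback inhibitor Socs1 from 0.383 to 139.9 FPKM and Ass1, which serves the remaking of arginine from citrulline, from 1.06 to 348.8 FPKM. The steepest falls were those of Cldn11, a tight junction protein, from 43.5 to 0.127 FPKM (342-fold in the authors' deposited table), and Igfbp4, which binds insulin-like growth factors, from 41.1 to 0.169 FPKM. The sphingosine-1-phosphate receptor gene S1pr1 fell from 21.2 to 0.0889 FPKM, the growth factor gene Igf1 from 9.11 to 0.0432 FPKM, and Cd33, a lectin that binds sialic acid, from 35.0 to 0.167 FPKM.

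Some of the most abundant transcripts of the culture were among those that moved. Tspo, a cholesterol-binding protein of the outer mitochondrial membrane, rose from 183.7 to 1512 FPKM. The thymosin gene Tmsb10, whose product binds actin monomers, rose from 29.5 to 784 FPKM, and Glrx, a glutaredoxin, from 29.3 to 565 FPKM. Mt2, a metal-binding metallothionein, rose from 377.7 to 1647 FPKM and was the most abundant called transcript with both treatments. In the other direction S100a4, a calcium-binding protein that held the highest level of any called gene under doxycycline, fell from 2853 to 745 FPKM.

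**Figure D2:**
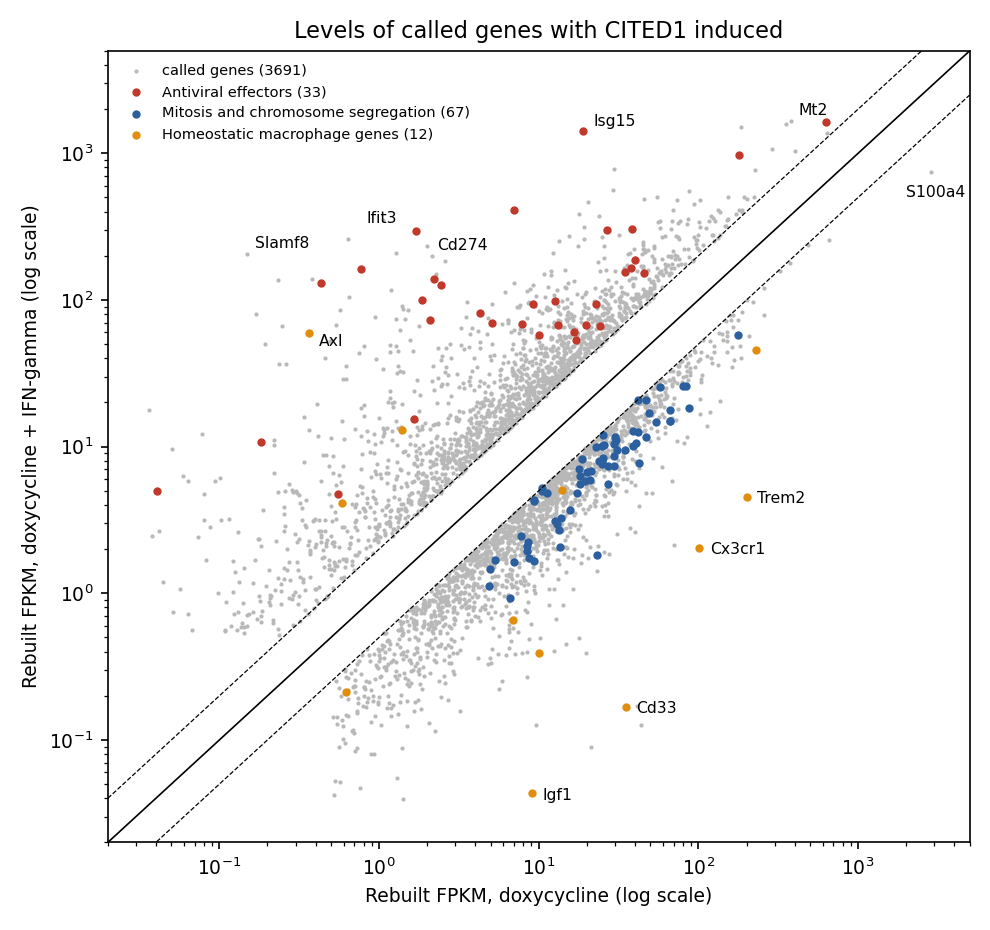
Rebuilt FPKM with doxycycline alone (horizontal axis, log scale) against doxycycline with interferon-gamma (vertical axis, log scale) for the 3691 genes called in 1 direction; dashed lines mark 2-fold, and colours mark 3 gene lists. Antiviral effectors (red) all lie above the upper line and mitotic genes (blue) all below the lower one, with Isg15 at 1429 FPKM and Cx3cr1 at 2.03 FPKM after interferon-gamma.

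Genes of the pathway itself were examined next. A gene is called listed below when it has a row in any of the 15 pairs, and counts per list stand beside 33.7% higher and 34% lower over all listed genes. Of the JAK, STAT and SOCS genes 15 are listed, of which 10 were higher here and 0 lower. The kinase genes moved together: Jak2, the kinase bound to the second receptor chain, rose from 7.61 to 92.7 FPKM, Jak3 from 3.73 to 17.7 FPKM, Tyk2 from 12.3 to 39.9 FPKM and Jak1 from 35.4 to 81.1 FPKM. Among the transcription factors Stat3 rose from 15.03 to 101.7 FPKM. The feedback inhibitor Socs3, whose promoter is printed above, rose from 3.25 to 64.9 FPKM, 20.0-fold in the authors' deposited table. Pias1 and Pias2, which restrain activated STAT proteins, reached 8.24 and 8.30 FPKM.

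Of the IRF genes and their partners, 12 are listed, 8 were higher and 1 was lower. Nlrc5, the activator of MHC class I genes, led with a rise from 2.77 to 50.0 FPKM. Irf5, a factor that directs inflammatory cytokines, rose from 45.3 to 222.6 FPKM, Irf9, a DNA-binding partner of STAT proteins, from 4.05 to 15.98 FPKM, and Irf2 from 23.04 to 72.4 FPKM. Nmi and Ifi35, which encode interacting proteins of the interferon response, rose to 59.1 and 137.5 FPKM. The member that fell was Cebpa, a factor of myeloid differentiation, from 19.0 to 2.40 FPKM.

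Antiviral effectors moved in a single direction. Of 39 listed, 33 were higher and 0 lower, with a median log2 rise of 3.11 against 1.65 over all genes called higher. Oasl2 and Oas1g, relatives of the synthetases that make the activator of RNase L, rose from 1.86 to 99.5 FPKM and from 10.1 to 57.8 FPKM. Zbp1, a sensor of Z-form nucleic acid that can start cell death, rose from 2.44 to 125.6 FPKM. Herc6, the mouse ligase that attaches ISG15 to proteins, rose from 2.08 to 72.6 FPKM, and Isg15 itself from 19.0 to 1429 FPKM. Enzymes that ISG15 needs rose as well, as Uba7 (the activating enzyme) went from 7.89 to 68.3 FPKM and Ube2l6 (the conjugating enzyme) from 34.8 to 155.5 FPKM. The Phf11, Ifit3, Oas1 and Ifit1 genes have near-identical neighbours, so the split of reads among the copies is uncertain. Bst2, which tethers budding virus to the cell, was already at 180.4 FPKM and reached 970.7 FPKM.

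Smaller families of interferon-regulated genes followed. The guanylate-binding protein genes Gbp3 and Gbp7, whose products attack the membranes of engulfed pathogens, rose to 104.3 and 85.5 FPKM, which the authors' deposited table gives as 161-fold and 149-fold, and Mx2 rose from 1.30 to 31.6 FPKM. Only 8 genes of that list are listed at all, and 3 were called here. In the TRIM list 11 of 17 were higher and 1 lower. Trim30a, a regulator of innate signalling, rose from 17.7 to 232.5 FPKM, Sp110, a nuclear body protein, from 11.9 to 157.3 FPKM, Pml, the founder of nuclear bodies, from 6.402 to 69.4 FPKM and Trim21, a cytosolic antibody receptor, from 2.65 to 26.6 FPKM.

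Of 13 listed PARP genes and partners 9 were higher and 3 lower. The interferon-regulated members Parp14, Parp11 and Parp12 rose to 107.1, 24.4 and 205.2 FPKM, and their partner Dtx3l rose from 13.3 to 91.2 FPKM. Parp3, which acts in DNA break repair, rose from 2.83 to 40.0 FPKM, whereas the main DNA damage polymerase Parp1 fell from 61.2 to 15.9 FPKM. Of 18 PYHIN and Schlafen genes 8 were higher and 1 lower, and several have near-identical copies. Slfn8 rose from 1.34 to 32.8 FPKM and Ifi203 from 7.54 to 88.8 FPKM, while Aim2, the DNA sensor of the inflammasome, went from 15.9 to 41.0 FPKM (2.58-fold in the authors' deposited table).

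Antigen presentation by MHC class I was raised at several steps. Of 13 listed genes 11 were higher and 0 lower. Tapbpl, which edits the bound peptides, rose from 3.50 to 76.7 FPKM. The proteasome activator genes Psme1 and Psme2 rose from 94.2 to 453.3 FPKM and from 102.3 to 479.7 FPKM, and the immunoproteasome subunit gene Psmb10 from 35.5 to 172.5 FPKM. The class I-like gene H2-Q1 rose from 85.4 to 358.7 FPKM, though reads are easily shared among H2 genes. Of 27 subunits of the constitutive proteasome 20 have no row in any pair. The 7 listed were all higher, with smaller folds, but being listed already takes a 2-fold change in some pair. Psma7 went from 188.0 to 411.6 FPKM and Psmd11 from 14.7 to 54.9 FPKM. Rescaling on all entries took each of these 7 below 2-fold. Of 6 listed class II genes 1 was called, H2-DMa, part of the peptide loader, which rose from 2.13 to 27.9 FPKM.

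Molecules that macrophages show to T cells moved mostly upward, with 13 of 19 listed genes higher and 1 lower. CD40, which receives help from T cells, was encoded by a transcript that rose from 1.27 to 210.5 FPKM, 166-fold in the authors' deposited table. Cd274, the gene of the checkpoint ligand PD-L1, rose 117-fold in the authors' deposited table, from 2.00 to 233.4 FPKM. Clec2d, a ligand of an inhibitory NK cell receptor, rose from 0.624 to 35.7 FPKM, Havcr2 (TIM-3) from 13.2 to 83.1 FPKM and Pdcd1 (PD-1) from 1.14 to 6.63 FPKM. The member that was lower, Tnfsf14, stayed under 1 FPKM in both groups.

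**Figure D3:**
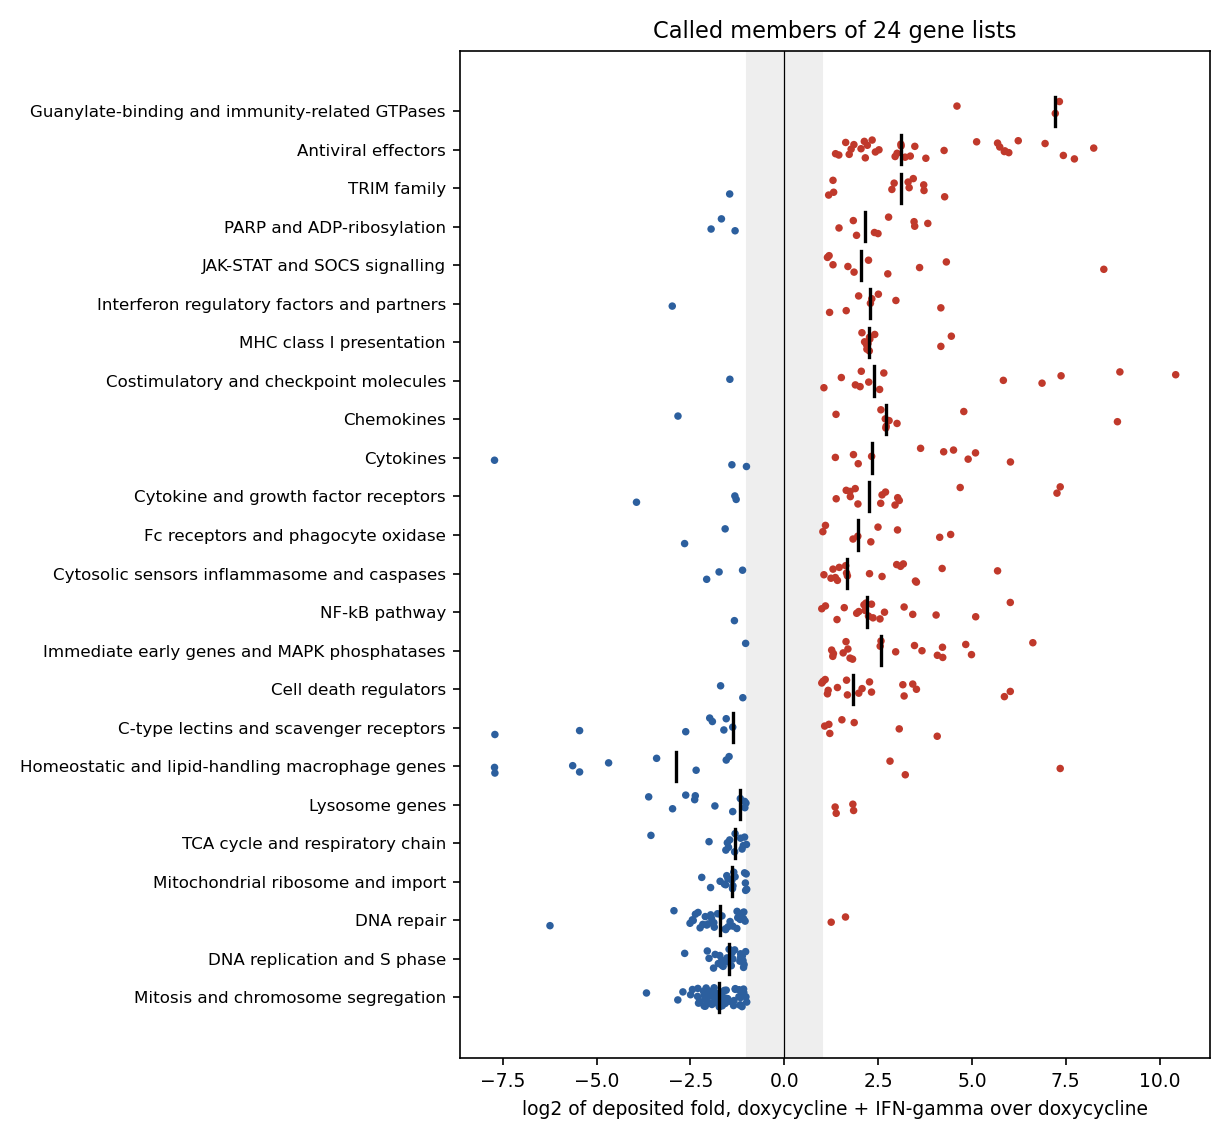
Called members of 24 gene lists (rows), each point a gene at its log2 deposited fold, doxycycline with interferon-gamma over doxycycline (horizontal axis); black bars are medians of called members and the grey band is the range under 2-fold that the table does not list. Points of the mitosis and DNA replication lists lie only to the left, and those of the antiviral and MHC class I lists only to the right.

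Among chemokines 9 of 11 listed were higher and 1 lower. Ccl4, which attracts monocytes and T cells, rose from 73.4 to 482.2 FPKM and Ccl3, its relative, from 193.9 to 504.2 FPKM. Ccl6 rose from 1.63 to 44.9 FPKM, the transmembrane chemokine Cxcl16 from 24.1 to 157.6 FPKM, and Ccl2, which draws monocytes, from 16.02 to 95.5 FPKM. Cxcl14 was the gene that fell, from 8.06 to 1.13 FPKM. Receptors went both ways, with 11 of 25 listed higher and 7 lower. The integrins Itgax (CD11c) and Itgal (CD11a) rose to 58.6 and 58.4 FPKM and Ccr1 rose from 1.31 to 13.5 FPKM. Cxcr4, the receptor for the homing chemokine CXCL12, fell from 6.2 to 0.380 FPKM, and Cxcr3 from 10.8 to 1.98 FPKM.

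Among cytokine genes Il15, which sustains NK and memory T cells, rose from 1.57 to 53.7 FPKM. Tnf rose from 13.3 to 253.1 FPKM, 19-fold in the authors' deposited table, and Il1rn, the antagonist of interleukin-1, from 20.5 to 466.5 FPKM. A signal and an antagonist of inflammation were thus both among the abundant transcripts with interferon-gamma. Lif, which had the largest rise on the list (65.2-fold in the authors' deposited table), reached 2.46 FPKM and Tgfb3 6.56 FPKM, both from under 1 FPKM. Over the list 10 of 21 were higher and 3 lower.

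Receptors for cytokines and growth factors showed 15 of 23 listed higher and 3 lower. Il12rb1, a chain of the interleukin-12 receptor, rose from 0.236 to 36.3 FPKM, and Axl, a receptor kinase that recognises dying cells through GAS6, from 0.363 to 59.3 FPKM. Gas6, the gene of that ligand, fell from 10.0 to 0.391 FPKM, so receptor and ligand transcripts moved in opposite directions. The common gamma chain gene Il2rg rose from 55.8 to 339.6 FPKM, Il13ra1 from 23.4 to 180.9 FPKM and Tnfrsf1a, the main TNF receptor, from 50.9 to 198.5 FPKM. Il1rl1, the interleukin-33 receptor, fell from 6.53 to 0.427 FPKM.

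Genes that recognise microbes inside the cell were mostly higher: of 25 listed cytosolic sensors, inflammasome genes and caspases 18 were higher and 3 lower. Casp1, the inflammasome protease, rose from 25.8 to 232.3 FPKM, Nlrp3 from 11.2 to 89.7 FPKM, Ripk2, the kinase downstream of NOD proteins, from 8.50 to 95.9 FPKM and Gsdmd, the pore former, from 35.4 to 110.2 FPKM. Sting1, the adaptor of cytosolic DNA sensing, rose from 15.3 to 131.1 FPKM. Nlrc3, a negative regulator of innate sensing, fell from 7.58 to 1.81 FPKM. Of 13 listed Toll-like receptor genes and adaptors 8 were higher and 1 lower. Cd180, a relative of TLR4, rose from 57.3 to 309.4 FPKM and Irak2 from 13.2 to 73.4 FPKM, whereas Tlr2, which senses bacterial lipoproteins, fell from 68.5 to 15.6 FPKM.

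Several Fc receptor genes rose: Fcgr4 went from 17.9 to 386.4 FPKM, Fcgr1 (CD64), the high-affinity IgG receptor, from 15.5 to 273.9 FPKM, Fcgr3 from 44.7 to 221.1 FPKM and the shared signalling chain Fcer1g from 641.4 to 1373 FPKM. Their list had 9 of 13 higher and 2 lower. C-type lectins and scavenger receptors had 7 of 24 higher and 8 lower, which is close to the shares over all listed genes. Clec7a (dectin-1), which binds fungal glucan, rose from 14.6 to 122.0 FPKM, and Clec12a from 67.3 to 195.2 FPKM, but Colec12 fell from 104.1 to 27.6 FPKM and Cd300a from 27.5 to 6.94 FPKM. Among complement genes 9 of 20 were higher and 2 lower, with C3 rising from 7.94 to 46.8 FPKM and Procr, the protein C receptor, from 3.56 to 96.9 FPKM.

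NF-kB genes and their targets were higher in 19 of 27 cases and lower in 1. The inhibitors and brakes of the pathway rose beside its subunits: Nfkbiz from 1.21 to 20.0 FPKM, Tnfaip3 (A20) from 4.90 to 31.2 FPKM, Nfkbib from 22.02 to 98.2 FPKM and Tnip3 from 24.1 to 105.1 FPKM. Traf1 rose from 1.32 to 45.2 FPKM. The Bcl2a1 genes, survival factors with near-identical copies, reached 90.3 (Bcl2a1a), 488.7 (Bcl2a1b) and 500.9 FPKM (Bcl2a1d). Of 24 listed immediate early genes and MAPK phosphatases, 19 were higher and 1 lower. Dusp2 and Dusp5, phosphatases that switch off ERK, rose to 116.8 and 33.8 FPKM, which the authors' deposited table gives as 98.6-fold and 31.8-fold. Fosl1 rose from 0.416 to 11.9 FPKM, Egr1 from 7.02 to 130.4 FPKM, Junb from 69.7 to 409.6 FPKM and Zfp36, which destabilises cytokine mRNA, from 12.3 to 207.8 FPKM.

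Regulators of cell death were higher in 18 of 25 listed cases and lower in 2. Genes that promote death and genes that prevent it rose together. On the first side Fas, the death receptor, rose 58.3-fold in the authors' deposited table, from 1.28 to 74.5 FPKM, Pmaip1 (NOXA) from 19.3 to 314.9 FPKM, and Mlkl and Ripk3, the executioner and kinase of necroptosis, to 68.0 and 75.1 FPKM. On the second side, next to the Bcl2a1 genes, Cflar rose from 14.8 to 74.4 FPKM. Birc5 (survivin), which also serves chromosome segregation, fell from 83.7 to 25.8 FPKM.

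Genes of resting macrophages mostly fell. Of 14 listed homeostatic and lipid-handling genes 9 were lower and 3 higher. Besides Gas6, Fabp4 fell from 6.90 to 0.653 FPKM and Fabp5, the other fatty acid carrier, from 230.8 to 45.3 FPKM. Axl and Gpr34, at 59.3 and 13.01 FPKM with interferon-gamma, are the larger exceptions on that list. Among the 30 largest falls outside that list, Timp2, an inhibitor of matrix proteases, fell from 8.43 to 0.396 FPKM and Alox5, the first enzyme of leukotriene synthesis, from 8.43 to 0.268 FPKM. Gas7, a membrane-shaping protein, went from 70.3 to 2.15 FPKM.

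RAW264.7 cells can become osteoclasts, and of the genes of that fate 6 of 12 listed were higher and 6 lower. Ctsk (cathepsin K), a protease that degrades bone matrix, fell from 3.07 to 0.390 FPKM, Acp5 (TRAP) from 4.26 to 0.767 FPKM, Atp6v0d2, a proton pump subunit, from 14.0 to 2.68 FPKM, and the master factor Nfatc1 from 6.51 to 1.36 FPKM. Ocstamp and Dcstamp, which serve cell fusion, rose from 0.535 to 67.5 FPKM and from 19.3 to 94.2 FPKM. Clcn7, the lysosomal chloride exchanger that acid secretion needs, rose from 0.942 to 76.1 FPKM, although this is the value of a single called transcript. Of 7 listed genes of alternative activation 5 were higher and 0 lower, including Tgm2, a transglutaminase, from 1.46 to 74.6 FPKM and Il4ra from 0.582 to 14.99 FPKM.

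Markers of cell types were also looked up. A marker with a steady level in all groups has no row, so an absent row cannot check the labelled cell type. Of 16 macrophage markers 8 are listed, of which Fcgr1, Aif1, Fcgr3, Spi1 and Fcer1g were higher and Adgre1, Cd68 and Itgam lower, and each had a level in both groups. Cd68, a glycoprotein of macrophage lysosomes, fell from 660.6 to 255.1 FPKM, and Spi1 (PU.1), the lineage factor, rose from 151.4 to 349.6 FPKM. Few markers of other cells are listed, which does not show that the others were absent. Of 13 T cell markers 2 are listed and Lck was called (0.458 to 3.18 FPKM). Of 9 B cell markers Ighm alone is listed (0.891 to 6.17 FPKM). No fibroblast marker of 9 is listed, and among 10 neutrophil markers Csf3r alone is, at 1.45 FPKM after interferon-gamma. Of 12 dendritic cell markers 4 are listed, and Tcf4 and Xcr1 were called higher. Clec9a, also on that list, has no level with doxycycline alone and so no fold here. It stood at 0.0437 FPKM untreated, 80.4 FPKM with interferon-gamma alone and 132.7 FPKM with both treatments. Xcr1, a chemokine receptor of cross-presenting dendritic cells, had the second largest rise of the comparison, from 0.0360 to 17.7 FPKM (492-fold in the authors' deposited table), and Tcf4 reached 11.6 FPKM. Among transcripts that can mark RNA quality 1 of 9 listed was called, the mitochondrial ribosomal RNA mt-Rnr1, from 147.1 to 319.2 FPKM. The part of any of these in the results was not tested.

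Mitotic and replication genes on the lists fell where they were called. Of 71 listed mitotic genes 67 were lower and 0 higher, with a median log2 of -1.73 against -1.54 over all genes called lower. Cdca7, a target of E2F and MYC, fell most on this list, from 23.3 to 1.83 FPKM. The kinesin Kif18a went from 6.596 to 0.924 FPKM, Cenpm, a centromere protein, from 13.5 to 2.08 FPKM, and the B-type cyclin Ccnb1 from 66.4 to 17.8 FPKM. Ccnb2 and Cdc20, whose CHR stretches are printed above, fell from 65.98 to 15.03 FPKM and from 66.4 to 14.9 FPKM.

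Of 37 listed genes of DNA replication 26 were lower and 0 higher, with a median log2 of -1.48. The flap nuclease Fen1 fell from 13.5 to 3.25 FPKM, Dut, which clears dUTP, from 30.3 to 7.55 FPKM, and the clamp loader Rfc4 from 25.6 to 6.92 FPKM. Subunits of the MCM helicase fell less: Mcm6 went from 70.5 to 28.2 FPKM, 2.5-fold in the authors' deposited table. DNA repair had 32 of 38 lower and 2 higher. Apex1, the main abasic site nuclease, fell from 80.7 to 10.5 FPKM, the checkpoint mediator Mdc1 from 11.2 to 1.97 FPKM, and Brca2 from 1.99 to 0.365 FPKM. Among p53 targets and cell cycle inhibitors 11 of 25 were higher and 6 lower. Plk2 and Btg1 rose to 104.0 and 238.0 FPKM, but Sesn1 fell from 19.6 to 2.32 FPKM. Another 8 of the 25 have no row here. Transcripts of Cdkn1a and Mdm2 rose from 122.7 to 487.1 FPKM and from 32.8 to 165.4 FPKM without induction, but have no level with both treatments.

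Mitochondrial genes on the lists moved downward where they were called. In the TCA cycle and respiratory chain 13 of 16 listed were lower and 0 higher. Idh2, the mitochondrial isocitrate dehydrogenase, fell 11.7-fold in the authors' deposited table, from 68.5 to 5.84 FPKM. Folds were smaller for Suclg2, a subunit of succinyl-CoA ligase, which fell from 20.4 to 5.09 FPKM, for Fh1 (fumarase), from 54.5 to 18.5 FPKM, and for Idh1, the cytosolic isocitrate dehydrogenase, from 79.0 to 27.6 FPKM. Of 26 listed genes of the mitochondrial ribosome and protein import 17 were lower and 0 higher, led by Timm9, an import chaperone, from 11.7 to 2.54 FPKM and Mrps35 from 8.84 to 2.27 FPKM. These lists are long and few of their genes are listed (16 of 74 and 26 of 86).

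Phgdh, the first enzyme of serine synthesis, fell from 117.6 to 17.2 FPKM and Shmt2, the mitochondrial serine hydroxymethyltransferase, from 102.9 to 20.99 FPKM, while Psat1, the next enzyme after Phgdh, rose from 2.70 to 30.6 FPKM. All 3 are textbook targets of the stress factor ATF4. Other genes of that list were higher (7 of 11 higher, 2 lower), including Ddit3 (CHOP) from 6.99 to 62.0 FPKM and Nupr1 from 11.4 to 85.5 FPKM. For arginine and nucleotides, Nampt, the enzyme of NAD salvage, rose from 52.5 to 232.5 FPKM and Odc1, of polyamine synthesis, from 76.7 to 346.9 FPKM, whereas Uck2, of pyrimidine salvage, fell from 71.9 to 15.2 FPKM.

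Lipid genes gave mixed counts. Of 18 listed sterol and fatty acid genes 7 were lower and 4 higher, with Elovl6, a fatty acid elongase, falling from 9.26 to 1.52 FPKM and Fasn from 48.3 to 14.8 FPKM. Abca1, the cholesterol exporter, fell from 4.18 to 0.364 FPKM. The nuclear receptor Rxra fell from 6.44 to 0.979 FPKM and Nr1d1 (REV-ERB alpha) from 1.83 to 0.163 FPKM. Lysosome genes were lower in 11 of 21 cases and higher in 4. Ctsf fell from 30.9 to 2.52 FPKM, Arsb from 102.5 to 16.6 FPKM and Gusb from 205.9 to 57.2 FPKM, against a rise of the membrane protein gene Lamp2 from 74.4 to 268.0 FPKM. On the list of NRF2 and iron genes 6 of 11 were higher and 4 lower, and 2 and 4 when rescaled on all entries. Hmox1 rose from 120.6 to 372.8 FPKM, Blvrb, a flavin reductase, rose from 25.6 to 194.1 FPKM, and Blvra, the enzyme that reduces biliverdin in the adult, fell from 62.1 to 12.3 FPKM. Steap3, the endosomal iron reductase, fell from 18.4 to 1.61 FPKM.

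Genes around the induced co-regulator were then considered. Of 15 listed genes of CBP, p300, their co-regulators and opposing deacetylases, 5 were higher and 6 lower, close to the shares over all listed genes, and no change passed 5-fold. Hif1a, which binds CBP and p300, rose from 27.4 to 116.4 FPKM, Kat2b (PCAF) from 8.46 to 34.5 FPKM and Brd2 from 19.4 to 69.5 FPKM. Sirt1 fell from 3.45 to 1.11 FPKM. The TGF-beta pathway, in which CITED1 is known to bind SMAD4, had 6 of 14 higher and 5 lower. All 5 that fell are SMAD genes, among them Smad3 from 2.59 to 0.244 FPKM, Smad6 from 1.88 to 0.313 FPKM and Smad5 from 8.09 to 1.86 FPKM. Pmepa1, which restrains SMAD signalling, rose from 0.446 to 8.75 FPKM. Of 21 chromatin genes 7 were higher and 8 lower, again close to the shares over all listed genes, with Hmgb3 falling from 14.4 to 1.86 FPKM and the demethylase Kdm6b rising from 3.33 to 17.3 FPKM.

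Cited1 itself has no row in this comparison. Its rebuilt level was 168 FPKM with doxycycline and 86.7 FPKM with doxycycline and interferon-gamma, which is under the 2-fold limit of the table. In cells without doxycycline it was 0.703 FPKM, and 11.5 FPKM with interferon-gamma. The interferon-gamma group without doxycycline is thus not free of Cited1 transcript, which bears on the comparison of both responses below. What part of the Cited1 level comes from the construct or from the cells' own gene cannot be told apart in these values.

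The same cytokine in construct cells without doxycycline gave 1404 genes higher (25.7%) and 1334 lower (24.5%). These groups are other samples, so the overlap can be counted. Of genes higher with CITED1 induced 1156 were also higher without induction, which is 62.9% of the first list and 82.3% of the second. For falls the shared number was 1082, or 58.4% and 81.1%. Whether a gene called only on 1 side responds differently was not tested, since no values per sample are given and no interaction can be fitted.

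Folds were larger with CITED1 induced in most cases. Both responses differ in doxycycline as well as in induced CITED1, and no samples of parental cells with interferon-gamma are among the groups, so the part of doxycycline itself cannot be told apart. Among 1414 transcripts called higher in both responses the median fold in the authors' deposited table was 4.29 with induction and 3.24 without. The fold was larger with induction in 1133, smaller in 278 and equal in 3. Among 1220 transcripts called lower in both, the median fall was 3.43-fold with and 2.83-fold without in the authors' deposited table, and 901 fell further with induction against 311 that fell less. A ratio of at least 2 between both folds was reached in 160 of the rises and 132 of the falls in the direction of a larger response, and in 15 and 11 in the other direction. As these transcripts passed a 2-fold limit in both comparisons, the numbers describe that subset, and the difference carries no test.

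**Figure D4:**
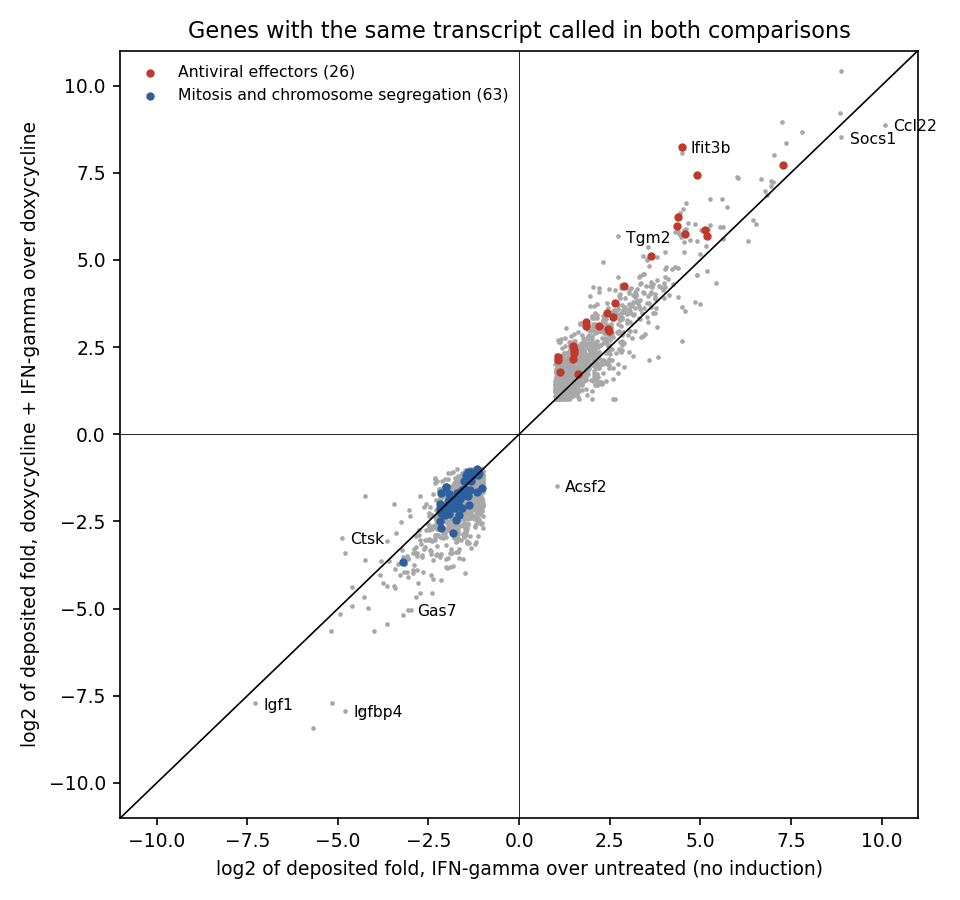
Log2 of the deposited fold for interferon-gamma without induction (horizontal axis) and with CITED1 induced (vertical axis) for 2122 genes whose same transcript was called in both; the line marks equal folds. Most rises lie above the line and most falls below it, mitotic genes (blue) sit close to it, and Acsf2 is alone in the lower right corner.

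Several lists were one-sided in this respect. Among antiviral effectors the rise was larger with induction for all 26 members called in both, and at least 2 times larger for 14. Their median fold was 9.79 with and 5.52 without induction in the authors' deposited table. The rise was also larger for 9 of 9 TRIM genes, 7 of 7 PYHIN and Schlafen genes and 7 of 7 genes of Fc receptors and phagocyte oxidase. Members without a fold in both responses are left out of these counts. Of 18 listed PYHIN and Schlafen genes 9 have no row here. Ifi204 and Slfn2 transcripts rose from 4.92 to 155 FPKM and from 58.9 to 359.1 FPKM without induction, but have no level with both treatments. For immediate early genes and MAPK phosphatases it was larger for 15 of 15 (median folds of 11.1 and 6.75 in the authors' deposited table), for MHC class I genes for 8 of 10 (4.75 and 4.14 in the authors' deposited table), and over all rises called in both for 1133 of 1414. These are counts of genes within the same 4 groups, not of independent observations.

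The following genes are among the 15 whose rise was most above that without induction. Ifit3 stood at 1.81 FPKM untreated, 1.71 with doxycycline, 54.4 with interferon-gamma and 295.8 with both, so its folds in the authors' deposited table were 30.01 without and 173 with induction. Ms4a4c, which encodes a protein that spans the membrane several times, rose 22.7-fold without and 270.5-fold with induction in the authors' deposited table. For Tgm2 the folds in the authors' deposited table were 6.63 and 51.1, and its level was 10.5 FPKM with interferon-gamma alone and 74.6 FPKM with both treatments. Apol9a and Apol9b, neighbouring apolipoprotein L genes, had folds of 3.90 and 4.09 without and 15.6 and 18.8 with induction in the authors' deposited table. Crem, a cAMP-responsive repressor, had 4.59 and 18.2 in the authors' deposited table.

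For the checkpoint ligand both folds were close: Cd274 reached 203.5 FPKM with interferon-gamma alone and 233.4 FPKM with both, with folds of 114 and 117 in the authors' deposited table. Cd40 was at 81.3 and 210.5 FPKM in these groups, Fcgr4 at 166.2 and 386.4 FPKM, Fas at 47.6 and 74.5 FPKM and Tnf at 188.8 and 253.1 FPKM. The authors' deposited table calls both treatments against interferon-gamma alone for Cd40 (2.59-fold) and Fcgr4 (2.33-fold), and it has no such row for Cd274, Fas or Tnf. Those rows share the group with both treatments with the comparison described here.

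**Figure D5:**
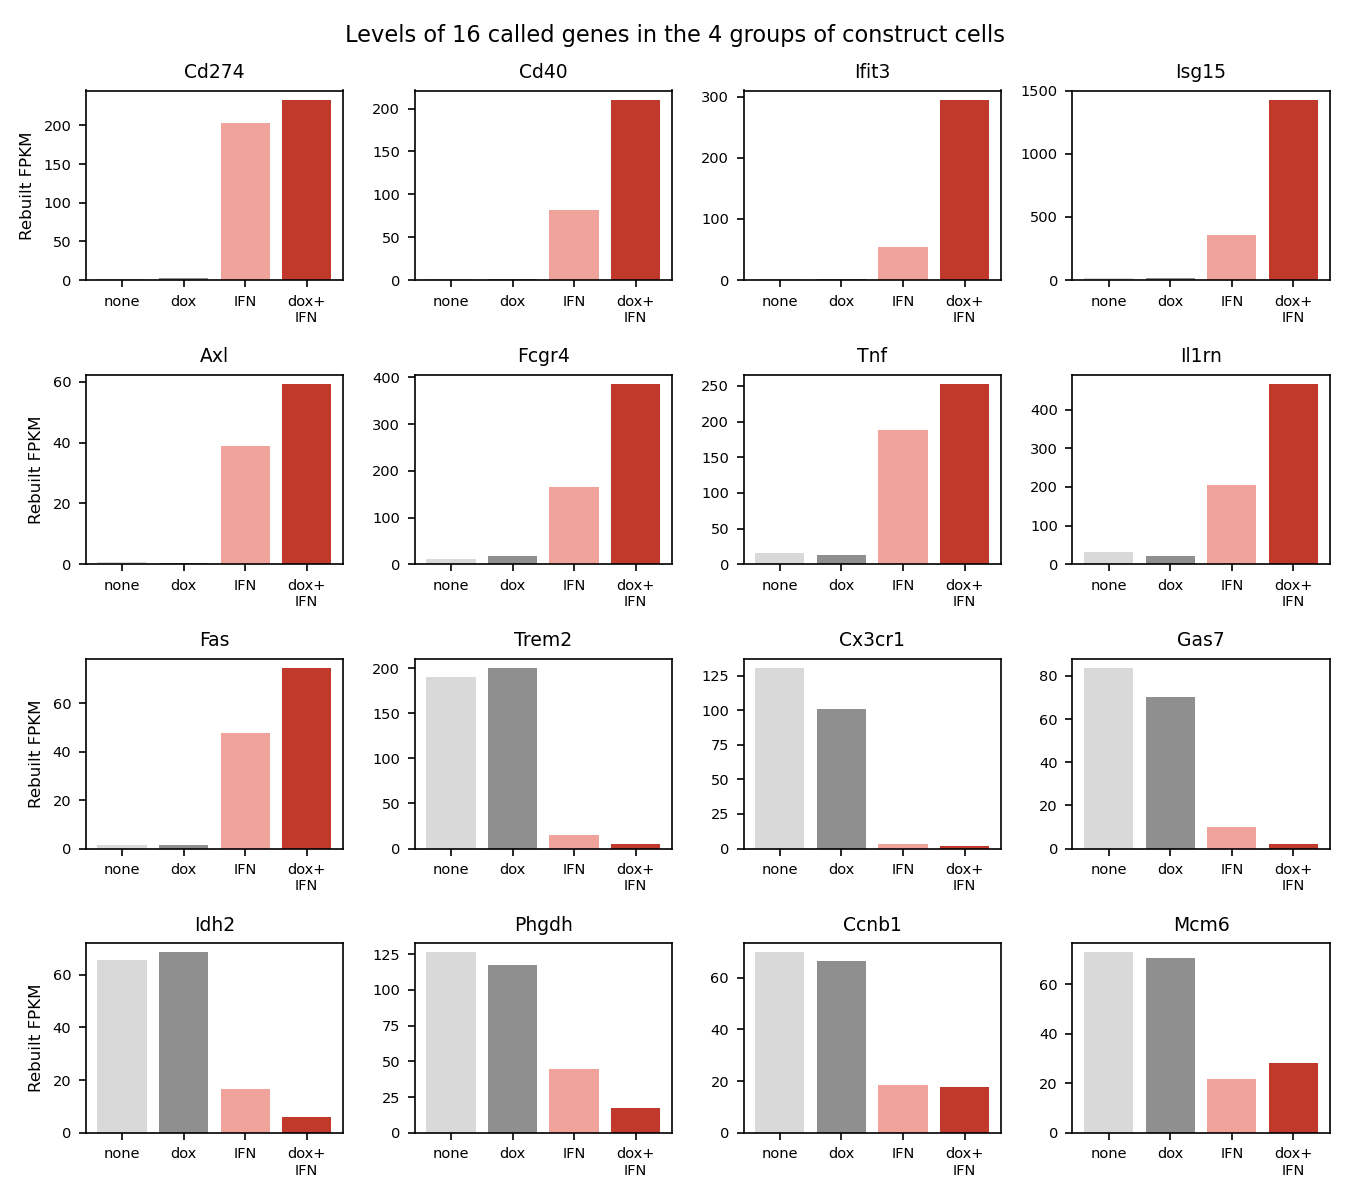
Rebuilt FPKM (vertical axes, each from 0) of 16 called genes in construct cells that were untreated (none), given doxycycline (dox), interferon-gamma (IFN) or both; bars are the authors' values per group, without replicate error. Isg15 stands at 358.4 FPKM with interferon-gamma and 1429 FPKM with both, while Ccnb1 stands at 18.5 and 17.8 FPKM.

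Larger falls with induction concerned genes of several kinds. Gas7 was at 83.6 FPKM untreated, 70.3 with doxycycline, 10.1 with interferon-gamma and 2.15 with both, with falls of 8.30-fold without and 32.7-fold with induction in the authors' deposited table. Abcd2, a peroxisomal fatty acid transporter, fell 2.80-fold without and 15.7-fold with induction, and Gpr176, an orphan receptor, 7.92-fold and 32.6-fold, by the authors' deposited table. Idh2 was at 16.7 FPKM with interferon-gamma alone against 5.84 FPKM with both, and Phgdh at 44.5 against 17.2 FPKM. Falls that were smaller with induction were led by Il13ra2, the decoy receptor for interleukin-13, at 19.0-fold without and 3.39-fold with, and Ctsk, at 29.7-fold without and 7.87-fold with induction in the authors' deposited table. With interferon-gamma alone and with both treatments Il13ra2 stood at 0.0821 and 0.317 FPKM, Ctsk at 0.107 and 0.390 FPKM, and Abcd2 at 0.479 and 0.0882 FPKM. All are under 1 FPKM, and the authors' deposited table has no row between these 2 groups for any of them.

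Proliferation genes showed less of this. Of 25 replication genes called lower in both, 8 fell further with induction and 17 fell less, with median falls of 2.80-fold with and 2.81-fold without in the authors' deposited table. Of 63 mitotic genes 41 fell further and 22 less, with 3.37-fold and 3.17-fold as medians in the authors' deposited table. Whether these lists differ from the others was not tested. Ccnb1 was at 18.5 FPKM with interferon-gamma alone and 17.8 FPKM with both, Cdc20 at 14.4 and 14.9 FPKM, and Mcm6 at 21.9 and 28.2 FPKM. Without the cytokine Ccnb1 was at 69.8 FPKM untreated and 66.4 FPKM with doxycycline. Jak2 and Irf9 stood at 54.5 and 12.99 FPKM with interferon-gamma alone, against 92.7 and 15.98 FPKM with both treatments.

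Opposite calls were found for 6 genes, and 1 of them concerned the same transcript. Acsf2, an acyl-CoA synthetase of mitochondria, rose from 0.601 to 1.24 FPKM without induction and fell from 1.154 to 0.416 FPKM with CITED1 induced. In Fgd4, Fip1l1, Rab23, Synpo and Ttpal the opposite calls came from different transcripts of the gene. For example, 1 transcript of Fgd4, an activator of the GTPase CDC42, fell from 12.5 to 4.65 FPKM without induction, and another rose from 2.55 to 8.52 FPKM with it.

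Gaps in the table limit all counts above. Irf7, a factor that amplifies the interferon response, has no row here, although its transcript stood at 24.8 FPKM untreated, 29.1 FPKM with doxycycline and 187.4 FPKM with interferon-gamma alone. The same holds for Gbp5, at 0.108, 0.134 and 216.9 FPKM. In all, 27 genes had at least 10 FPKM and a 4-fold rise with interferon-gamma alone but no level with both treatments, and 25 of them have no row here. In the reverse case, Batf2, Clec9a and Mx1 have levels of 268, 133 and 69.6 FPKM with both treatments and none with doxycycline alone, so no fold is listed for them. Gaps also concern falls. Of transcripts called without induction, 10.5% of rises (188 of 1785) and 15% of falls (236 of 1573) have no level with both treatments. Of those called with induction, 26.4% of rises (653 of 2476) and 27.2% of falls (600 of 2203) have none with interferon-gamma alone. The reason for these gaps was not tested, and the lists of interferon genes above are incomplete to that extent.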

How the data were processed

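Strand-specific libraries from poly(A)-selected RNA were sequenced in 18 samples. Per the submitters' processing notes the tools were Cuffdiff 2.2.1, STAR 2.5.3a, edgeR, featureCounts and FastQC 0.11.5, without roles. For the authors' annotation and genome build the answer is "not given in the sources used here". What was deposited is a table of the authors' Cuffdiff results per pair of groups. Each has a fold, a linear ratio by the authors, a direction, a deposited FPKM total of both groups, and a q-value adjusted by the authors. Of 112230 rows, 77406 name groups outside these samples and were not used. The table had been filtered (smallest fold 2, largest q 0.0499), and a gene at 0 in a group is not listed against it.

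The total divided by (fold + 1) gave the lower level, and the fold times that gave the higher. Levels of a group rebuilt from several pairs (17763 of at least 1 FPKM) differed by at most 0.753%. Entries without a name (156 here) or with several (19) were left out of gene counts. Genes count in a direction where no called entry goes the other way. As no value per sample is given, the planned count test could not be run, and no test of any kind was made. Precision and depth are unknown.

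The members and the 57 gene lists (1743 genes) were chosen with earlier results of these data known. Named genes were taken from Cited1, the 30 largest rises and falls, the 15 most abundant called genes with both treatments and with doxycycline, and per list up to 6 called members with the largest log2 fold and 3 with the highest level. Further sources were genes called oppositely without induction, the 15 whose fold was most above and most below that without induction, and the 5 list members nearest to 2-fold. Not all of them are described. Predicted genes were passed over. Outside this rule, and chosen for their role after their values were seen, are Acp5, Aim2, Batf2, Ccl2, Ccnb1, Ccnb2, Ccr1, Cdc20, Cdkn1a, Cflar, Clec9a, Colec12, Cxcr3, Gbp5, Gpr34, Gsdmd, Gusb, Herc6, Ifi204, Irf2, Irf7, Irf9, Itgal, Itgam, Jak1, Mdm2, Mx1, Nfatc1, Nfkbib, Nlrc3, Nlrp3, Oas1g, Oasl2, Parp1, Pdcd1, Pias2, Ripk3, Slfn2, Tnfsf14, Tyk2, Uba7, Ube2l6 and Zeb2. Promoters and biotypes came from RefSeq (GRCm38.p6) and GENCODE M21. Alternatives were a q of 0.01, a minimum of 1 FPKM, log2(FPKM + 1), 2 rescalings and counting entries. The counting was tested on simulated data. Python 3.11.15, pandas 2.3.3, numpy 2.4.6 and matplotlib 3.10.9 were used.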

Additional observations from a re-analysis of the deposited data

How the results depend on the processing

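With 1837 genes higher and 1854 lower as deposited, a q of 0.01 or less left 1686 and 1720, a minimum of 1 FPKM in either group left 1785 and 1777, and 2-fold on log2(FPKM + 1) left 1529 and 1309. Counting transcripts in place of genes gave 2476 and 2203. Over 4973 entries with both levels known the median log2 ratio was 1.00; this value lies on the 2-fold limit because the table lists few smaller changes and more entries rose than fell. Rescaling by it left 733 genes higher and 1860 lower, so that 28.3% of called genes were higher in place of 49.8%, and list members called higher went from 354 to 219. Over 294 entries with both levels but no row here the median was -0.12, and rescaling by it gave 1839 higher and 1607 lower. Of 375 named genes, 15 fell short of 2-fold on log2(FPKM + 1), 62 under the first rescaling and 9 under the second. Alox5ap, Bnip3l and Cyld, which lie at the 2-fold limit, reversed under the first rescaling, each to a log2 of -0.000324. That rescaling also turned glycolysis and hypoxia genes from 7 higher and 4 lower to 1 and 4, solute carriers from 15 and 10 to 6 and 11, and genes of lipid efflux, storage and oxidation from 4 and 3 to 0 and 3. Falls of mitotic (67), replication (26) and mitochondrial genes (13 and 17) kept their counts under it. That shift makes every fall larger, so these counts could not drop and the result is no check on them. Under the second rescaling they went to 63, 21, 10 and 12.

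No paired analysis was possible because the table has no values per sample; for the same reason leaving out each replicate and a test of the difference between both responses were not run. Depth is unknown, so changes under 2-fold and genes at 0 cannot be judged.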

Other observations

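Gene families grouped by symbol, chosen after their values were seen, were in part one-sided and in part mixed. Their counts stand beside 33.7% higher and 34% lower over all listed genes. Genes named Tmem were even, with 26 of 74 higher and 26 lower. All 12 called mitochondrial tRNA synthetase genes with a symbol ending in 2 were lower, of 13 listed. Mars2 fell from 2.05 to 0.441 FPKM, Vars2 from 6.61 to 1.46 FPKM and Lars2 from 26.3 to 8.93 FPKM, while among 5 other synthetase genes 2 were higher and 2 lower. Nucleolar genes of the Nop, Nol, Noc and Utp families were lower in 14 of 16 cases and higher in 1, with Nop56, a core protein of small nucleolar particles, falling from 58.1 to 26.0 FPKM and Utp20 from 11.02 to 3.27 FPKM. Of 12 RNA polymerase subunits 6 were lower and 1 higher, and Polr1b, of the polymerase for ribosomal RNA, fell from 10.96 to 2.83 FPKM. Zinc finger genes named Zfp were lower in 51 of 110 cases and higher in 18, most of them under 10 FPKM.

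Rab GTPase genes, which direct vesicle traffic, were mostly higher. Of 17 listed members 13 were higher and 2 lower. Rab20, which takes part in phagosome maturation, rose from 5.76 to 33.9 FPKM, Rab7b from 14.97 to 49.6 FPKM, and the early endosome gene Rab5c from 120.7 to 278.8 FPKM. RING finger genes named Rnf were higher in 18 of 28 cases and lower in 5. Of 5 listed Ms4a genes 4 were higher and 0 lower, including Ms4a6d from 29.0 to 110.3 FPKM. Histone genes were mixed, with 10 of 20 higher and 5 lower: H2ax, which marks DNA breaks, fell from 183.7 to 40.4 FPKM and the replacement histone gene H1f0 from 113.3 to 41.2 FPKM, while H1f2 rose from 26.0 to 73.0 FPKM.

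Among non-coding genes, lincRNAs made up 22 of the 1837 genes called higher and 35 of the 1854 called lower. The number of lincRNAs listed in any pair was not counted, so whether they lean to falls cannot be judged. Mir22hg, host of a microRNA, rose from 2.44 to 26.1 FPKM, 10.7-fold in the authors' deposited table. Ptgs2os2, a lincRNA near Ptgs2, rose from 2.24 to 14.2 FPKM. Mexis, a lincRNA near Abca1 known to support its expression, fell from 0.930 to 0.0803 FPKM, next to the fall of Abca1 from 4.18 to 0.364 FPKM.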
